A study of Mus musculus with 6 samples.

Results

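The TRIM (tripartite motif) genes encode a large family of proteins that share a RING finger, 1 or more B-boxes and a coiled coil, followed by a C-terminal part that differs between subfamilies. Members were the protein-coding rows of the deposited comparison table whose symbol is Trim, a number and at most 1 lower-case letter. This gave 68 gene identifiers of 22740 protein-coding ones, under 67 symbols, because Trim30b is listed under a pair of identifiers. One of the rows, named Trim61 in the deposited table, carries the symbol Apela in the GENCODE M21 annotation, and it had no count in any library. The samples were 6 RNA-seq libraries of tumour grafts of MMTV-Neu cells grown in FVB mice, 3 with the genotype label WT and 3 with the label AXL KO. In MMTV-Neu mice a mammary tumour virus promoter drives the oncogene Neu (ErbB2) in mammary epithelium. Axl encodes a cell surface tyrosine kinase related to Tyro3 and Mertk. All 6 libraries share the oncogene, the strain and the graft setting. Neither separate host animals nor a shared tumour line is stated for the grafts, so each p-value covers the spread of these 6 samples alone, and the genotype and the cell line cannot be told apart.

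Most TRIM proteins are E3 ubiquitin ligases, which attach ubiquitin to other proteins through their RING finger. A subset is induced by interferon and acts in antiviral defence, for example by binding viral capsids or by activating sensors of viral RNA. Others silence chromatin, organise microtubules, or work in muscle and in red cell precursors.

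The libraries held 26541009 to 32491807 counts in genes, and TRIM genes took 0.161% to 0.177% of them in the WT libraries and 0.202% to 0.215% in the AXL KO libraries. Axl had 1507 to 1906 counts in the WT libraries and 1360 to 2396 in the AXL KO libraries (log2 fold change -0.01 ± 0.16 SE, edgeR adjusted p = 0.978), so it did not separate the groups, and all directions are between libraries as labelled. The labels do not give the deleted part of the gene. Of 8 markers of mammary tumour epithelium 7 were tested, of which 1 was higher and 5 lower. Over all tested genes 19.1% were higher and 18.3% lower. With Erbb2, the oncogene, left out the other markers summed to 4250 to 4600 CPM in the WT libraries and 2940 to 3290 CPM in the AXL KO libraries. Here CPM is the count scaled to the library size times its TMM factor. Erbb2 itself rose from 7190 to 9210 CPM (log2 0.36 ± 0.10 SE, edgeR adjusted p = 0.026), and the sum with it was 11100 to 12500 CPM and 11200 to 13300 CPM. A graft also holds host cells, and in such bulk RNA fewer cells of a type and less RNA per cell cannot be told apart.

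Of the 68 TRIM identifiers, 40 passed the filter on low counts and 28 did not. In the AXL KO libraries 16 of the 40 were higher and 5 lower at an adjusted p under 0.05 (edgeR quasi-likelihood test, adjusted over 14850 genes), which is 40% and 12.5% of them. Over all tested genes 19.1% were higher and 18.3% lower, 37.4% in either direction. The 3 AXL KO libraries lay above all WT libraries for 20 of the 40 genes and below them for 8, against 26.9% and 25.2% of all tested genes. At least a 2-fold increase was reached by 9 TRIM genes, against 5.14% of all tested genes, and none fell by that much, against 4.82%. For 3 of the 9, Trim30c, Trim30d and Trim34b, not all WT libraries reached the minimum of the filter, so these were tested only because the AXL KO libraries did. The median log2 fold change was 0.23 for the tested TRIM genes and 0.0 for all tested genes. The TRIM median was 0.13 with WT replicate 1 left out and 0.12 with AXL KO replicate 3 left out. The count of lower TRIM genes was 3 without WT replicate 3, AXL KO replicate 1 or AXL KO replicate 3. All 9 of these larger increases were in the group of genes known to be induced by interferon. That group was set with earlier results of these data known, so this adds no separate support. Without that group, 5 of 29 tested TRIM genes were higher and 5 lower, 17.2% each, which is near the shares over all genes.

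**Figure D1:**
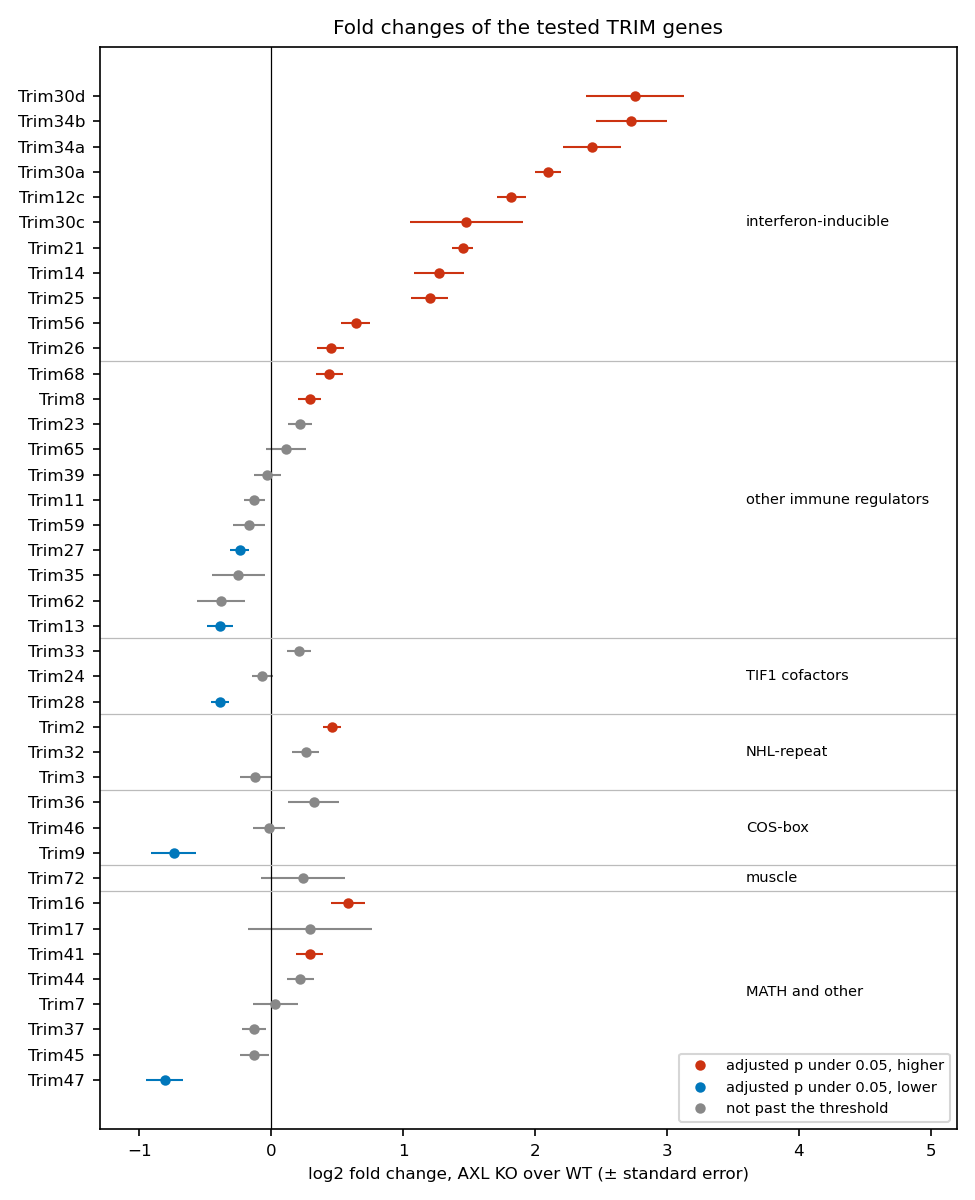
Log2 fold change (AXL KO over WT) with its standard error for the 40 tested TRIM genes, grouped by role and coloured by the edgeR call. All 11 genes of the interferon-inducible group lie right of 0, up to 2.76 for Trim30d, while the other groups lie between -0.81 and 0.58. Trim30d, Trim30c and Trim34b passed the filter only through the AXL KO libraries.

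The interferon-inducible group, set from general knowledge of the family with earlier results of these data known, held 17 identifiers, of which 11 were tested and called higher in the AXL KO libraries. Without Trim30c, Trim30d and Trim34b, which passed the filter only through the AXL KO libraries, 8 of 8 were higher. Their median was 1.36 on the log2 scale, and 19.1% of all tested genes were higher. The order of the 11 on the log2 scale ran from Trim30d, Trim34b and Trim34a at the top, through Trim30a, Trim12c, Trim30c, Trim21, Trim14 and Trim25, to Trim56 and Trim26. The summed level of the group was 260, 345 and 297 CPM in the WT libraries and 624, 622 and 681 CPM in the AXL KO libraries. The other TRIM genes together stood at 1310, 1420 and 1360 CPM in the WT libraries and at 1450, 1410 and 1480 CPM in the AXL KO libraries, so these sums overlapped.

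Markers of lymphocytes and dendritic cells moved with this group. Of 12 leukocyte markers 11 were higher in the AXL KO libraries, against 19.1% of all tested genes. Their summed level was 33.4 to 37.1 CPM in the WT libraries and 91.4 to 97.5 CPM in the AXL KO libraries. Among them Gzma, Gzmb, Ncr1, Klrk1 and Xcr1 passed the filter only through the AXL KO libraries. For these a difference was built into the choice to test them. None of the 12 was at 0, and Cd3e, part of the T cell receptor, stood at 0.462 CPM and 1.9 CPM. Of 7 macrophage markers 0 were called by edgeR (1 at an unadjusted p under 0.05, and 1 with DESeq2), and their sum was 369 to 495 CPM and 375 to 517 CPM. The part of these cells in the TRIM results was not tested.

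Trim25, the E3 ligase that acts with the viral RNA sensor RIG-I, was the most abundant gene of the group. Its level was 85.4, 128 and 120 CPM in the WT libraries and 249, 245 and 271 CPM in the AXL KO libraries. Every AXL KO library was above every WT library, and WT replicate 1 was the lowest. The log2 fold change was 1.20 ± 0.14 (SE), a 2.29-fold increase (edgeR adjusted p = 0.000348). Trim56, an E3 ligase reported to act in antiviral signalling, was at 92.2, 119 and 95.6 CPM in the WT libraries and at 153, 156 and 170 CPM in the AXL KO libraries. The groups did not overlap, and the change was smaller, 1.56-fold (log2 0.64 ± 0.11 SE, edgeR adjusted p = 0.00207).

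Trim21, a cytosolic receptor for antibody that targets antibody-coated virus for degradation, showed little spread within each group. It was measured at 20.2, 22.1 and 20.4 CPM in the WT libraries and at 55.2, 54.5 and 61.8 CPM in the AXL KO libraries. The lowest AXL KO value was well above the highest WT value, with a 2.73-fold increase (log2 1.45 ± 0.08 SE, edgeR adjusted p = 9.84e-06). Trim14, which lacks a RING finger and acts as an adaptor in antiviral signalling, was at 7.88, 13.1 and 11.6 CPM and at 27.3, 22.1 and 29.4 CPM in the same order of groups. The groups did not overlap, and the increase was 2.42-fold (log2 1.27 ± 0.19 SE, edgeR adjusted p = 0.00107). Exons of Trim14 overlap those of Nans on the other strand, and 29.5% of the 50-base stretches in Trim14 transcripts also occur in Nans transcripts on either strand. Nans, an enzyme of sialic acid synthesis, rose from 108 to 153 CPM (log2 0.51 ± 0.08 SE, edgeR adjusted p = 0.00157), and its part in the Trim14 count was not tested. Trim26, a gene of the MHC region on chromosome 17, had the smallest change of the group, at 27.5, 34.1 and 26.6 CPM in the WT libraries and 41, 38.3 and 41.1 CPM in the AXL KO libraries. The groups did not overlap, and the increase was 1.36-fold (log2 0.45 ± 0.10 SE, edgeR adjusted p = 0.0101).

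**Figure D2:**
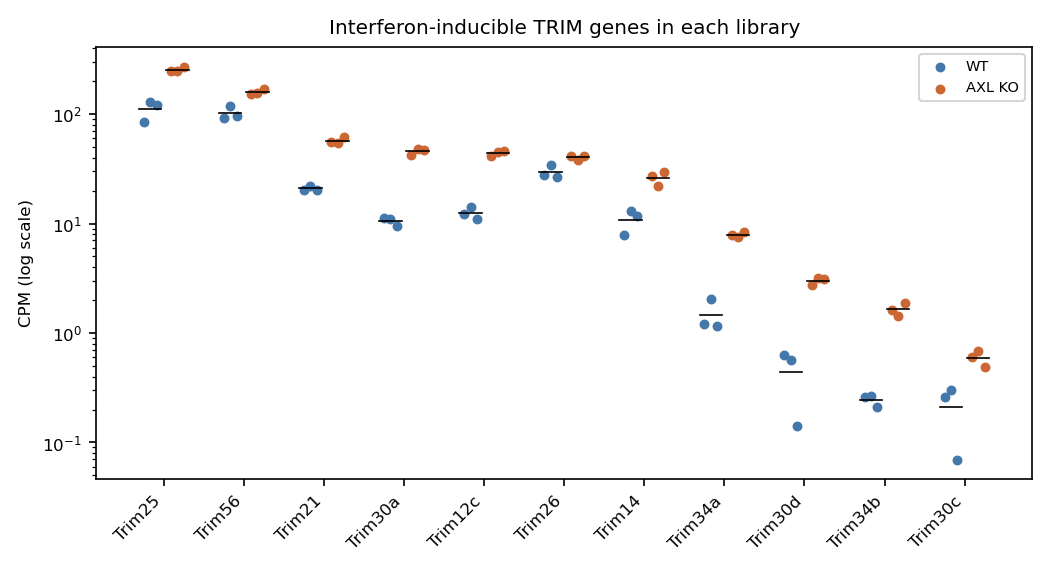
CPM of the 11 tested interferon-inducible TRIM genes in each library (log axis), with points for libraries and a bar for the mean of 3. For every gene the 3 AXL KO points lie above the 3 WT points, as they do for 26.9% of all tested genes. Trim30c, Trim30d and Trim34b passed the filter only through the AXL KO libraries, so for them a difference was built into the choice to test them.

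The largest fold changes among the 40 tested members lay in 1 stretch of chromosome 7. Without the filter, Trim69 on chromosome 2, with 21 counts in all, exceeded them at 3.82 on the log2 scale (edgeR adjusted p = 0.00788). In GRCm38, 10 TRIM identifiers lie between the start of Trim6 (position 104218793) and the end of Trim30d (position 104507849), in the order Trim6, Trim34a, Trim5, Trim12a, Trim34b, Trim12c, Trim30b, Trim30c, Trim30a and Trim30d. This is the mouse counterpart of the locus that holds the antiretroviral gene TRIM5 in humans, expanded by gene duplication in rodents. Of the 6 tested genes 3 (Trim30c, Trim30d and Trim34b) passed the filter only through the AXL KO libraries. The other 3, Trim12c, Trim30a and Trim34a, were all higher by at least 2-fold, and 4 identifiers had too few counts to test. The cluster lies about 78.5 Mb from Axl on the same chromosome.

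**Figure D3:**
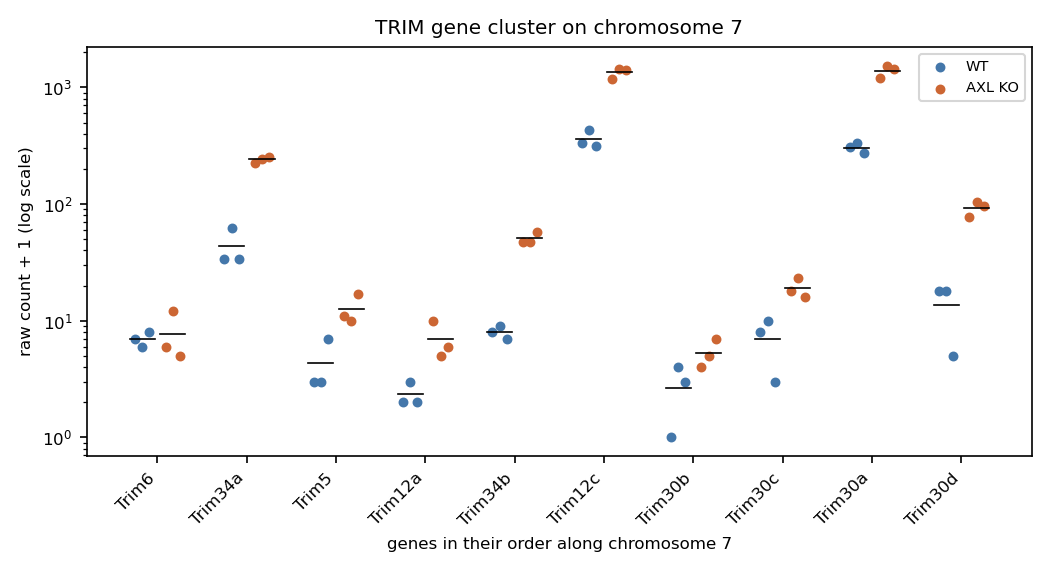
Raw counts plus 1 (log axis) of the 10 TRIM genes of the chromosome 7 cluster in each library, in chromosome order, with a bar for the mean of 3. Trim12c and Trim30a carry most of the counts, and Trim6 at the left end shows overlapping groups.

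Trim30a, reported to dampen NF-kappaB signalling downstream of Toll-like receptors, was counted 307, 332 and 273 times in the WT libraries and 1202, 1537 and 1426 times in the AXL KO libraries. In CPM the values were 11.3, 11 and 9.52 against 42.6, 47.5 and 46.8. No library of a group came near the other group, and the increase was 4.3-fold (log2 2.10 ± 0.10 SE, edgeR adjusted p = 3.56e-06), the smallest p of the family. Trim12c, a close relative of Trim5, was at 12.3, 14.2 and 10.9 CPM in the WT libraries and at 41.5, 44.8 and 46.1 CPM in the AXL KO libraries. Its groups were separate as well, with a 3.53-fold increase (log2 1.82 ± 0.11 SE, edgeR adjusted p = 1.15e-05).

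The other genes of the cluster that were tested were lower in level. Trim34a was at 1.21, 2.03 and 1.15 CPM in the WT libraries and at 7.93, 7.51 and 8.34 CPM in the AXL KO libraries, a 5.38-fold increase (log2 2.43 ± 0.22 SE, edgeR adjusted p = 9.14e-05). Trim34b had 7, 8 and 6 counts against 46, 46 and 57, a 6.61-fold increase (log2 2.73 ± 0.27 SE, edgeR adjusted p = 0.000151). These genes are duplicates of each other, and 56.8% of the 50-base stretches of Trim34b transcripts occur in Trim34a transcripts. Trim30d had 17, 17 and 4 counts in the WT libraries and 77, 103 and 95 in the AXL KO libraries, a 6.75-fold increase (log2 2.76 ± 0.37 SE, edgeR adjusted p = 0.000706). Trim30c had 7, 9 and 2 counts against 17, 22 and 15, a 2.79-fold increase (log2 1.48 ± 0.43 SE, edgeR adjusted p = 0.0256). In all 4 genes the AXL KO libraries were above the WT libraries. Trim34b, Trim30d and Trim30c passed the filter through the AXL KO libraries, as stated above, so a difference was built into the choice to test them. The call of Trim30c was lost without WT replicate 3 (edgeR adjusted p = 0.0667, log2 fold change 1.07). It was also lost without AXL KO replicate 1 or 2 (edgeR adjusted p = 0.0666 and 0.0597) and with DESeq2 (adjusted p = 0.0697).

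The genes of the cluster that did not pass the filter are given by their counts, with no test. Trim5 had 2, 2 and 6 counts in the WT libraries and 10, 9 and 16 in the AXL KO libraries. Trim12a had 1, 2 and 1 against 9, 4 and 5, and Trim30b had 0, 3 and 2 against 3, 4 and 6 under its first identifier and 3 counts in all under its second. Trim6, at the end of the cluster next to Trim34a, had 6, 5 and 7 counts against 5, 11 and 4, and these overlapped. Of the 50-base stretches in Trim5 and Trim12c transcripts, 36.6% and 33.7% also occur in transcripts of another gene, mostly of each other. Non-unique alignments took 25.7% to 29% of the deposited total of a library and are not in the gene counts, so the split between Trim5, Trim12a and Trim12c, and between Trim34a and Trim34b, is uncertain.

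The promoter sequences of the family were searched for the core letters of the interferon-stimulated response element, the site bound by the factors that interferon activates. RefSeq promoter windows on GRCm38.p6, from 250 bases before to 50 after a gene start, were given for 52 of the 67 TRIM symbols. The letters GAAANNGAAA, read on either strand (TTTCNNTTTC on the other), occurred in at least 1 window of 9 of the 52 TRIM genes, which is 17.3%, and of 3.99% of all 27025 genes with a window. They were found in 7 of 13 TRIM genes that were higher in the AXL KO libraries, in 0 of 5 that were lower, in 0 of 12 that were not called and in 2 of 22 that were not tested. The 13 include Trim30c, Trim30d and Trim34b, which passed the filter only through the AXL KO libraries, and the duplicates Trim30a and Trim30d count as separate genes. Over all tested genes, 6.9% of those called higher held the letters. Of TRIM genes at least 2-fold higher 5 of 8 with a window held them, against 16.5% of all tested genes at least 2-fold higher. A match is a description of the sequence and not a measured site. With only the bases before the gene start searched, 5 of the 52 TRIM genes held the letters, which is 9.62%, against 3.46% of all genes. Of the 13 that were higher, 4 then held them. The letters TTCNNNGAA, the core of the gamma-activated site, which is its own reverse complement, occurred in 6 of the 52 TRIM genes, which is 11.5%, and in 9.55% of all genes.

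The matches in the chromosome 7 cluster are shown because duplicated genes carry them in nearly the same surroundings, with the matching letters in capitals. The stretches run 5′ to 3′ on the strand of the gene. Those of Trim30a (chr7:104465194-104465293), Trim30d (chr7:104507850-104507949), Trim12c (chr7:104353350-104353449) and Trim5 (chr7:104288107-104288206), all on the minus strand, are the 100 bases that end at or near the gene start.
Trim30a: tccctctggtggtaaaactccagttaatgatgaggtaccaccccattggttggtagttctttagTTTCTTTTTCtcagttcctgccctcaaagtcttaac
Trim30d: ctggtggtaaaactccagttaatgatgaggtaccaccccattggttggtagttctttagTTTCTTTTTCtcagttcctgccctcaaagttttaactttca
Trim12c: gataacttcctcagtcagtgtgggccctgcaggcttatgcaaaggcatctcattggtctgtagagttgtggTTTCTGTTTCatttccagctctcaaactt
Trim5: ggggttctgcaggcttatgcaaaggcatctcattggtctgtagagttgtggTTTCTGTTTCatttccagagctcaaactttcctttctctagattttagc
The match ends 27 bases before the start in Trim30a and 32 bases before it in Trim30d, and the 30 bases around it are identical in both genes. In Trim12c it ends 20 bases before the start and in Trim5 40 bases before it, and 28 of the 30 bases around it are identical. Trim30a, Trim30d and Trim12c were called higher, of which Trim30d passed the filter only through the AXL KO libraries. Trim5, with nearly the same stretch as Trim12c, had 45 counts in all 6 libraries and did not pass the filter. Without the filter Trim5 was higher, at 1.7 on the log2 scale (edgeR adjusted p = 0.0318).

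Other matches in the family lie just after the annotated start or further before it, and they are shown as 30 bases around the letters. They belong to Trim12a (chr7:104315466-104315495, minus strand), Trim34a (chr7:104244457-104244486, plus strand), Trim21 (chr7:102565447-102565476, minus strand) and Trim26 (chr17:36836979-36837008, plus strand).
Trim12a: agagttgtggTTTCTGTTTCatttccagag
Trim34a: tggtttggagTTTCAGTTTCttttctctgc
Trim21: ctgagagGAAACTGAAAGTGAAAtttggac
Trim26: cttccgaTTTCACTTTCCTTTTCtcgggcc
In Trim21 and in Trim26 a pair of overlapping matches forms a run of repeats. In Trim26 the run lies 160 to 145 bases before the start, and in Trim21 14 to 29 bases after it. The 30 bases of Trim12a and Trim5 are identical. The windows of Trim25, Trim34b and Trim7 (which was not called) held only a looser form of the letters, GAAANNGAA on either strand, which occurred in 12 of the 52 TRIM genes and in 9.76% of all genes. Trim2, which is not known as an interferon-induced gene and rose less than the cluster, held the letters in 1 of its 5 windows.

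The 14 other TRIM genes that regulate immune or NF-kappaB signalling had 2 higher, 2 lower and 7 not called among 11 tested. These shares, 18.2% each way, are near those over all tested genes, and 3 of the 14 were not tested. Trim8, which regulates cytokine signalling, had the highest level of the family per exon length, with a mean of 45.4 CPM per kb of exon over all 6 libraries. Its level was 153, 161 and 139 CPM in the WT libraries and 197, 164 and 195 CPM in the AXL KO libraries. AXL KO replicate 2 was close to the highest WT library, and the increase was 1.22-fold (log2 0.29 ± 0.09 SE, edgeR adjusted p = 0.0361). This call was lost without WT replicate 1 or 3 (adjusted p = 0.0506 and 0.136) and without AXL KO replicate 1 or 3 (adjusted p = 0.129 and 0.118). Trim68 rose 1.35-fold, from 24.9 to 33.7 CPM (log2 0.44 ± 0.10 SE, edgeR adjusted p = 0.00748).

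Trim13, an E3 ligase anchored in the endoplasmic reticulum, fell 1.31-fold, from 18.1 to 13.8 CPM (log2 -0.39 ± 0.10 SE, edgeR adjusted p = 0.0176). Trim27 fell 1.18-fold, from 63.7 to 53.8 CPM (log2 -0.24 ± 0.07 SE, edgeR adjusted p = 0.0229). In both genes all AXL KO libraries were below all WT libraries. The call of Trim13 was lost without WT replicate 3 (edgeR adjusted p = 0.0733) and without AXL KO replicate 1 or 3 (0.0618 and 0.0812). That of Trim27 was lost without WT replicate 3 (edgeR adjusted p = 0.0745) and without AXL KO replicate 1, 2 or 3 (adjusted p = 0.0538, 0.0714 and 0.0936). Trim59, one of the 5 most abundant members per exon length, was at 66.1, 55.6 and 62.8 CPM in the WT libraries and at 57.1, 61.6 and 45.8 CPM in the AXL KO libraries. The groups overlapped (log2 -0.17 ± 0.12 SE, edgeR adjusted p = 0.298). The remaining tested genes, Trim11, Trim23, Trim35, Trim39, Trim62 and Trim65, lay between -0.38 and 0.22 on the log2 scale. Without AXL KO replicate 2, Trim35 was lower, with a log2 fold change of -0.50 (edgeR adjusted p = 0.0365). Trim15 and Trim40 had no count, and Trim31 had 4 counts in all.

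The chromatin cofactors of the TIF1 subfamily carry a PHD finger and a bromodomain. Trim28 (KAP1), the corepressor that brings silencing enzymes to retroelements through zinc finger proteins, was lower in the AXL KO libraries. It was measured at 164, 158 and 166 CPM in the WT libraries and at 125, 119 and 130 CPM in the AXL KO libraries. Both groups were narrow and did not overlap, and the decrease was 1.31-fold (log2 -0.39 ± 0.07 SE, edgeR adjusted p = 0.00295). Trim28 (chromosome 7, 12999114 to 13031035) lies 12.8 Mb from Axl. Trim24 and Trim33 had log2 fold changes of -0.07 ± 0.08 and 0.21 ± 0.09 (SE), with edgeR adjusted p-values of 0.517 and 0.114. Without WT replicate 2, Trim33 was higher, at 0.31 on the log2 scale (edgeR adjusted p = 0.0129). Trim66 had 22 counts in all. Of 7 partners of this complex 1 was higher and 1 lower, 14.3% each way, which is below the 19.1% and 18.3% of all tested genes. Cbx5, the heterochromatin protein HP1 alpha, fell from 198 to 151 CPM (log2 -0.39 ± 0.09 SE, edgeR adjusted p = 0.0113), and Atf7ip, a partner of the histone methyltransferase SETDB1, rose from 61.8 to 95.8 CPM (log2 0.63 ± 0.14 SE, edgeR adjusted p = 0.00892). Setdb1 itself stood at 62 and 66 CPM (log2 0.09 ± 0.07 SE, edgeR adjusted p = 0.372).

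Among members with NHL repeats, Trim2, an E3 ligase known from neurons, was higher in the AXL KO libraries. Its level was 149, 151 and 157 CPM in WT and 218, 201 and 209 CPM in AXL KO libraries. The groups did not overlap, and the increase was 1.37-fold (log2 0.46 ± 0.07 SE, edgeR adjusted p = 0.00116). Trim32 stood at 0.26 ± 0.10 (SE) on the log2 scale with an edgeR adjusted p of 0.0713, and Trim3 at -0.12 ± 0.12 (SE) with 0.464. Trim71, a gene of early embryos, had 3 counts in all.

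The COS-box members bind microtubules. Trim9, known from neurons, was at 6.29, 6.61 and 4.92 CPM in the WT libraries and at 3.08, 3.77 and 3.78 CPM in the AXL KO libraries. The groups did not overlap, and the decrease was 1.67-fold (log2 -0.74 ± 0.17 SE, edgeR adjusted p = 0.0097). Neuronal markers were nearly absent, with Snap25 at 0. The sum over 5 genes was 1.19 to 1.4 CPM in the WT libraries and 1.02 to 1.13 CPM in the AXL KO libraries. The part of neuronal cells in the Trim9 result was not tested. Trim46 and Trim36 were not called, with log2 fold changes of -0.02 ± 0.12 and 0.32 ± 0.19 (SE), and Trim67 had 46 counts in all.

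Trim47 showed the largest decrease among the 40 tested members, while Trim10, with 44 counts in all, stood at -1.81 on the log2 scale without the filter (edgeR adjusted p = 0.0404). This E3 ligase of the PRY-SPRY type was at 27.5, 28.9 and 24.7 CPM in the WT libraries and at 12.9, 18.5 and 14.7 CPM in the AXL KO libraries. All AXL KO libraries were below all WT libraries, and the decrease was 1.76-fold (log2 -0.81 ± 0.14 SE, edgeR adjusted p = 0.00218). Exons of Trim47 overlap those of Trim65, reported to act with the viral RNA sensor MDA5, which lies on the same strand of chromosome 11, which was not called (log2 0.11 ± 0.15 SE, edgeR adjusted p = 0.584). Endothelial markers were lower as well, 5 of 5 against 18.3% of all tested genes, and none was at 0. Their sum was 256 to 285 CPM in the WT libraries and 149 to 197 CPM in the AXL KO libraries. They were not alone in this. Also lower were 5 of 7 tested markers of mammary tumour epithelium and 6 of 6 red cell markers, of which Slc4a1 passed the filter only through the WT libraries. The part of any of these cells in the Trim47 result was not tested.

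Trim16, a member without a RING finger that is known for its part in the handling of damaged endomembranes, was at 11.4, 14.2 and 16.2 CPM in the WT libraries and at 21.4, 19.9 and 21 CPM in the AXL KO libraries. The groups did not overlap, and the increase was 1.49-fold (log2 0.58 ± 0.13 SE, edgeR adjusted p = 0.00855). Its exons overlap those of Fbxw10 on the same strand, and Fbxw10 rose from 0.221 to 1.12 CPM (log2 2.31 ± 0.33 SE, edgeR adjusted p = 0.000908). Fbxw10 passed the filter only through the AXL KO libraries, so a difference was built into the choice to test it. The part of Fbxw10 in the Trim16 count was not tested. Trim41 rose 1.22-fold, from 39.4 to 48.1 CPM (log2 0.29 ± 0.10 SE, edgeR adjusted p = 0.045). Its exons overlap those of Rack1 on the other strand, a ribosome-bound scaffold protein at 810 and 903 CPM, and the use of strand in counting is not given in the sources used here. The call of Trim41 was lost without WT replicate 1 or 3 (edgeR adjusted p = 0.101 and 0.158) and without AXL KO replicate 1, 2 or 3 (adjusted p = 0.132, 0.0553 and 0.105).

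Trim44, the fourth most abundant member per exon length, was at 131, 163 and 154 CPM in the WT libraries and at 164, 172 and 188 CPM in the AXL KO libraries. The groups were separate by a small margin, and the log2 fold change of 0.22 ± 0.10 (SE) did not pass the test (edgeR adjusted p = 0.0961). Without WT replicate 2 it did, at 0.29 (edgeR adjusted p = 0.0482). Trim7, Trim17, Trim37 and Trim45 lay between -0.13 and 0.29 on the log2 scale and were not called. Trim29, known from squamous epithelia, had 54 counts in all and was not tested, and 4 basal or squamous epithelial markers summed to 1.6 to 2.61 CPM in the WT libraries and 3.26 to 3.52 CPM in the AXL KO libraries.

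**Figure D4:**
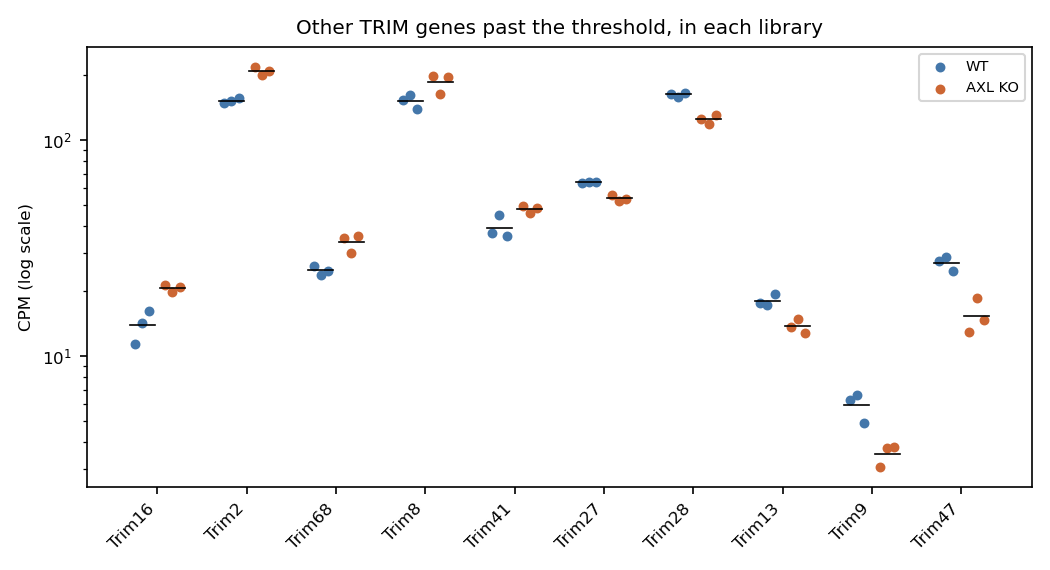
CPM in each library (log axis) of the 10 TRIM genes past the threshold outside the interferon-inducible group, with a bar for the mean of 3. Groups do not overlap for any of them, which adds no separate support, because the genes were chosen by their adjusted p in the same libraries. Changes run from a 1.49-fold increase in Trim16 to a 1.76-fold decrease in Trim47.

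Members known from muscle and red cell precursors had low counts or none, and only Trim72 passed the filter. Trim54 and Trim63, ligases of the muscle sarcomere, had no count in any library, which allows up to 0.0169 CPM over all 6 libraries (3 counts, counting error only). Trim55 had 40 counts in all, and Trim72, known for membrane repair in muscle, was tested at 0.658 and 0.78 CPM (log2 0.24 ± 0.32 SE, edgeR adjusted p = 0.593). Skeletal muscle markers summed to 0.942 to 1.51 CPM and 1.68 to 2.09 CPM over 10 genes. Trim10, which acts in red cell maturation, had 11, 14 and 9 counts in the WT libraries and 1, 8 and 1 in the AXL KO libraries, without overlap and below the filter. All 6 red cell markers were lower in the same libraries, against 18.3% of all tested genes, and none was at 0. Their sums were 646 to 1020 CPM and 152 to 237 CPM. One of them, Slc4a1, passed the filter only through the WT libraries, so a difference was built into the choice to test it. The part of red cells in the Trim10 counts was not tested. Trim58, also of red cell precursors, had 2 counts.

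Of the 10 members left, Trim42, Trim60, Trim61 and Trim75 had no count, and Trim52, the 3 Trim43 genes and Trim50 had at most 8 counts each. Trim69 had 1, 0 and 0 counts in the WT libraries and 4, 9 and 7 in the AXL KO libraries. It did not pass the filter, and the authors' deposited table gives it a log2 fold change of 1.95 (turned to AXL KO over WT) with an adjusted p of 0.0222. Trim38, counted in the interferon-inducible group, had 2 counts.

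The most abundant members stood in a different order in the groups. Per kb of exon, the highest means in the WT libraries were those of Trim8 (40.8 CPM per kb), Trim28 (39.1), Trim44 (26.5), Trim25 (19.3) and Trim59 (18.3). In the AXL KO libraries they were those of Trim8 (49.9 CPM per kb), Trim25 (44.3), Trim44 (30.9), Trim28 (29.9) and Trim56 (17.2). Trim44 and Trim28 differ by little in the AXL KO libraries. Trim12c and Trim30a, at 3.34 and 2.58 CPM per kb in the WT libraries, reached 11.8 and 11.1 CPM per kb, while Trim34b, Trim30d and Trim30c stayed under 1 CPM per kb in both groups.

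**Figure D5:**
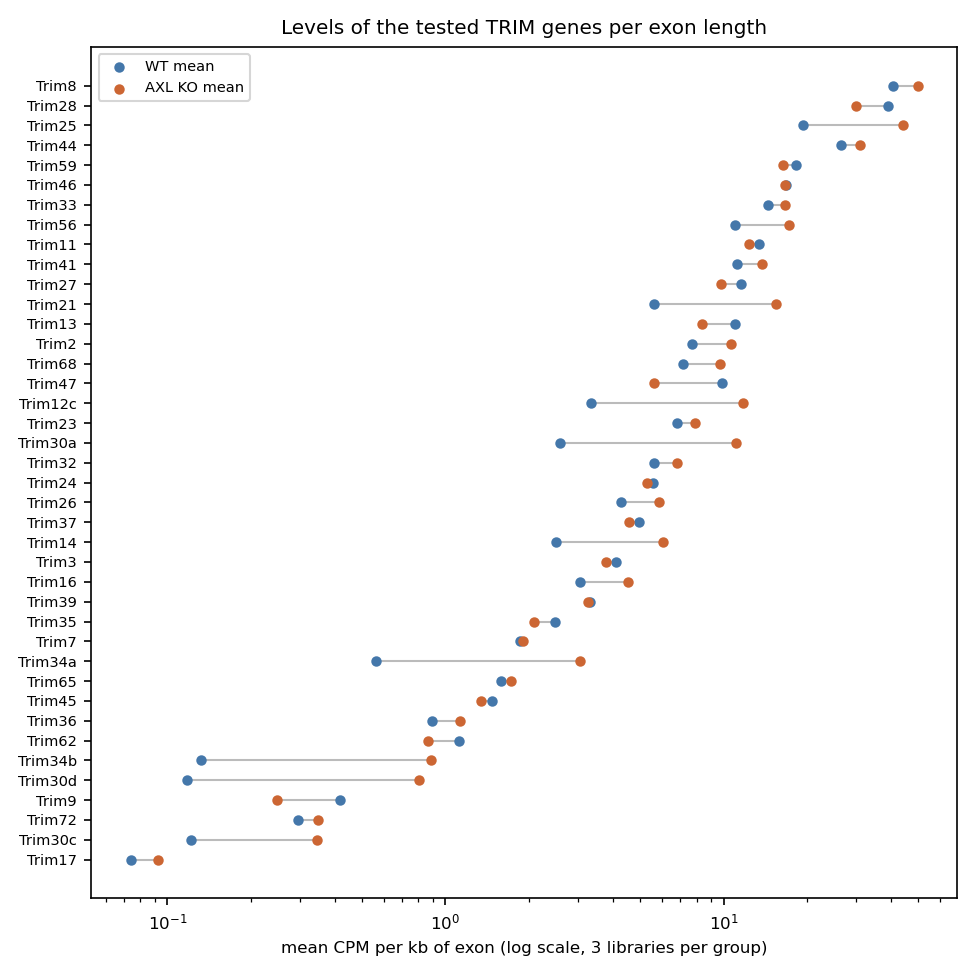
Mean CPM per kb of exon (log axis) of the 40 tested TRIM genes in the WT and the AXL KO libraries, 3 libraries per group, ordered by the mean over all 6. Trim8 is at the top with 45.4 CPM per kb, and the longest lines between group means belong to Trim34a, Trim34b and Trim30d.

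TRIM genes that carry other symbols and genes that work with TRIM proteins were read as lists set from general knowledge. Pml (TRIM19), the core of nuclear bodies and an interferon-induced gene, rose from 78 to 129 CPM (log2 0.73 ± 0.09 SE, edgeR adjusted p = 0.000468). Mid1 (TRIM18), a microtubule-bound ligase, fell from 8.24 to 5.66 CPM (log2 -0.54 ± 0.13 SE, edgeR adjusted p = 0.0113), while Mid2 and Mefv were not called. Of 11 genes of the RIG-I pathway 7 were higher and 0 lower, and 63.6% higher compares with 19.1% of all tested genes. Among them Ddx58, which encodes RIG-I itself, rose from 29.4 to 148 CPM (log2 2.33 ± 0.18 SE, edgeR adjusted p = 4.47e-05). Mavs, the adaptor below RIG-I, stood at 75.9 and 75.8 CPM. Of 11 ubiquitin-conjugating (E2) enzymes 1 was higher and 3 lower, 9.09% and 27.3%, against 19.1% and 18.3% of all tested genes. Ube2l6, the E2 for the ubiquitin-like protein ISG15, rose from 13.4 to 51.7 CPM (log2 1.95 ± 0.09 SE, edgeR adjusted p = 3.38e-06), whereas Ube2n, which builds the lysine-linked chains used in antiviral signalling, fell from 97.4 to 79.8 CPM (log2 -0.29 ± 0.08 SE, edgeR adjusted p = 0.0187). Ube2d1 and Ube2d2a were the other two that fell.

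In the authors' deposited table, 20 TRIM identifiers had an adjusted p under 0.05, and 19 of them were called here in the same direction. The exception was Trim69. Trim41 and Trim30c were called here and not in the authors' deposited table, which gives them adjusted p-values of 0.0512 and 0.066.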

How the data were processed

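Gene expression was measured by RNA-seq in 6 libraries of tumour grafts, grouped by their titles. CASAVA 1.8, TopHat2 2.0.10, HTSeq 0.5.3, DESeq2 1.4.5 and GRCm38 are named in the submitters' processing notes. Their settings, including strand and read length, are not stated in the labels. Per library, a deposited table gives raw counts of 39179 gene identifiers and 5 rows that name no gene, which were left out. The deposited comparison table holds a signal per library, which is the count divided by 1 size factor (largest relative deviation 5.15e-10), and the authors' log2 fold changes (WT over AXL KO), statistic scores and p-values.

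Genes were kept with filterByExpr (minimum count 10, minimum total 15), which left 14850. Groups were compared with edgeR 4.0.16 in R 4.3.3 (TMM, quasi-likelihood test, group as the only term, 4 residual degrees of freedom, Benjamini-Hochberg adjustment over all tested genes, threshold 0.05). The standard error is the size of the log2 fold change over the square root of F. No libraries within a group agreed within sampling noise (chi-square per gene 11.1 to 29.6). An exact permutation test of 3 against 3 libraries cannot go below p = 0.1, so none was used for single genes. The edgeR steps were tested on simulated counts, with changes set only in genes above a minimum average level. Recovery of changes in low-count genes was therefore not tested. Exon lengths and positions came from GENCODE M21 (GRCm38), which held 67 of the 68 identifiers, and promoters from RefSeq (GRCm38.p6), matched by symbol.

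Members, lists and groups were chosen with earlier results of these data known. Library values are given for members with an adjusted p under 0.05 and an absolute log2 fold change of at least 0.58, and for the 5 members with the highest CPM per kb. Values in libraries of some other members, Nans, Fbxw10 and Rack1, and the counts of members that were not tested were added after their values were seen. Alternatives were the tests of limma-voom 3.58.1 and DESeq2 1.42.0, upper-quartile or DESeq2 factors in edgeR, no filter, a mean log2 CPM of at least 2, a replicate block, each library left out, an adjusted p of 0.01 and a 2-fold minimum. Markers of fibroblasts (sum 1090 to 1710 CPM in WT and 742 to 1360 CPM in AXL KO libraries, 0 of 5 called by edgeR, also at an unadjusted p under 0.05, or by DESeq2) and of spermatids (0 counts) were read as well.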

Additional observations from a re-analysis of the deposited data

How the results depend on the processing

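Of the 21 TRIM genes called, 16 kept their call and direction in all of the 13 other fits that tested them, among them 10 of the 11 tested interferon-inducible genes, with Trim30c as the exception. Trim8, Trim13, Trim27, Trim30c and Trim41 lost theirs in at least 1. With each library left out in turn, the TRIM genes numbered 13 to 18 higher and 3 to 6 lower, their median log2 fold change was 0.12 to 0.30, and over all genes 2000 to 2846 were higher and 1733 to 2828 lower. At an adjusted p under 0.01, 12 TRIM genes were higher and 3 lower (1610 and 1464 over all genes). With a 2-fold minimum 9 were higher and 0 lower (764 and 716 over all genes). Without a filter 18 were higher and 6 lower of 60, which added Trim5 and Trim69 (higher) and Trim10 (lower, edgeR adjusted p = 0.0404). Without the members that passed the filter only through the AXL KO libraries, an alternative chosen after seeing the data, 8 interferon-inducible genes and 3 genes of the chromosome 7 cluster were higher in place of 11 and 6. With only the bases before the gene start, the response element letters were in 5 TRIM genes in place of 9.

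The replicate numbers are shared between the groups, but same-numbered libraries did not deviate together (correlations -0.06, -0.13 and 0.09), so they were not taken as pairs. A fit with the replicate number as a block had 14 TRIM genes higher and 4 lower, and Trim8, Trim27 and Trim41 were no longer called (edgeR adjusted p = 0.0762, 0.0558 and 0.0736). Signs turned only in 5 genes that were called in none of these fits: with 1 library left out, Trim7 ranged from -0.09 to 0.23 on the log2 scale, Trim39 from -0.08 to 0.08, Trim46 from -0.13 to 0.07, Trim65 from -0.01 to 0.25 and Trim72 from -0.01 to 0.49. The cause of these changes was not tested. Genes under the filter, 28 of 68 TRIM identifiers with at most 54 counts each, are limited by depth.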
